A study of Homo sapiens with 6 samples.

Results

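LMOD3, KLHL31 and APOBEC2 are genes of skeletal muscle that had lower mean expression in PANX1-expressing Rh30 cells than in GFP control cells. They are 3 of the 1273 genes of the deposited table and were picked by name with their values in these libraries already known. Their difference between the groups is therefore described here without a test. Rh30 is an established line of human alveolar rhabdomyosarcoma, a childhood cancer whose cells resemble muscle precursors. RNA-seq was performed on 3 libraries from stable Rh30 cells with a cumate-inducible PANX1 construct and on 3 libraries from stable Rh30 cells with the GFP control vector. Cumate is a small molecule that lifts the block of a repressor on the inserted gene. Both groups received 30 µg/mL cumate for 48 h, and both were cultured with geneticin and puromycin to keep the repressor and the lentiviral construct. The vector backbone also carries GFP behind an EF1 promoter, and whether the stable lines were single clones is not given in the sources used here. The methods call the 3 samples of a group biological replicates. Expression is given as FPKM, fragment counts scaled to transcript length and to library size, which makes levels comparable between genes of different length but carries no read depth.

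The table holds genes that the authors had already called on these same libraries, and 1108 of the 1273 (87%) had a higher mean FPKM in PANX1-expressing cells while 165 (13%) had a lower one. LMOD3, KLHL31 and APOBEC2 are among the latter by choice. PANX1 itself (XLOC_003765, chromosome 11 of hg19, 93862094 to 93915137) had 37.8, 35.3 and 28.1 FPKM in GFP replicates 1, 2 and 3 and 124, 184 and 123 FPKM in PANX1 replicates 1, 2 and 3. Its mean level was 4.26-fold higher in the PANX1 group, and every PANX1 library exceeded every GFP library, as labelled. PANX1 replicate 3 stood apart from the other libraries. The median log2 ratio over the whole table, taken against the mean of GFP, reached 1.87 in PANX1 replicate 3, against 0.77 and 0.61 in PANX1 replicates 1 and 2. Values without replicate 3 are given below for LMOD3, KLHL31 and APOBEC2 and for the muscle and kelch-BTB genes called in the fit over the table.

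Skeletal muscle contracts through sarcomeres, in which thin filaments of actin slide past thick filaments of myosin. LMOD3 encodes leiomodin 3, which nucleates actin and binds near the slow-growing ends of thin filaments, and its loss causes nemaline myopathy. KLHL31 encodes a kelch-BTB protein of skeletal and cardiac muscle. Many proteins of this family hand their partners to a cullin 3 ubiquitin ligase, and filamin C has been described as a target of KLHL31 in mouse muscle. APOBEC2 belongs to the AID/APOBEC family of cytidine deaminases and is the member found mainly in skeletal muscle and heart, although no nucleic acid target is firmly established for it.

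LMOD3 (XLOC_015812) lies on the minus strand of chromosome 3 of hg19 from 69156039 to 69171746. KLHL31 (XLOC_018935) lies on the minus strand of chromosome 6 from 53512699 to 53530506. APOBEC2 (XLOC_018284) lies on the plus strand of chromosome 6 from 41020940 to 41032630. In the GENCODE annotation of the same build, the longest coding transcript of each gene has 3 exons. The proteins are 560 codons long for LMOD3, 634 for KLHL31 and 224 for APOBEC2. The 3′ untranslated region takes up 61.6% of the 4922-base LMOD3 transcript, 63.7% of the 5776-base KLHL31 transcript and 49.7% of the 1633-base APOBEC2 transcript. LINC01564 spans KLHL31 on the opposite strand, but its annotated exons share 0 bases with those of KLHL31. OARD1 spans APOBEC2 on the opposite strand and shares 120 exonic bases with it, or 7.35% of the APOBEC2 transcript. The counting is not stated to use strand, so reads over those shared bases cannot be told apart.

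Upstream sequences were available from RefSeq (GRCh38.p14) for LMOD3 and APOBEC2, and KLHL31 had no entry. They are shown because the 3 genes were all lower in the same cells and myogenic transcription factors bind E-boxes, short sites that read CANNTG. Each is the 250 bases before the annotated start of the gene, 5′ to 3′ on the gene's own strand, and was placed on hg19 by exact match. LMOD3 was found at chr3:69171747-69171996 on the minus strand and APOBEC2 at chr6:41020691-41020940 on the plus strand. Capitals mark every CANNTG and TATAAA found on either strand.
LMOD3: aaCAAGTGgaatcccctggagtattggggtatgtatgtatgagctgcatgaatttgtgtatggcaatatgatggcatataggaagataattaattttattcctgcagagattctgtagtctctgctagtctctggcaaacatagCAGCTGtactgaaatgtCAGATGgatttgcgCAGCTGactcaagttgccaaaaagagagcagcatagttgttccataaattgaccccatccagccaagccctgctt
APOBEC2: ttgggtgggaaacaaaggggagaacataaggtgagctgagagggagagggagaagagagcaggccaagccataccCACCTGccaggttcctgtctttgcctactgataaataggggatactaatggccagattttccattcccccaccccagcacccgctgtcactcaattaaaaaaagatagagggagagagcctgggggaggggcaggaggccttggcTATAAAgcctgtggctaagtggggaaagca

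The LMOD3 stretch held 4 CANNTG sites, of which 2 read CAGCTG and began 106 and 75 bases before the start. Among 35116 RefSeq stretches of the same length, 61.8% held at least 1 CANNTG, 3.35% held 4 or more and 1.27% held 2 or more CAGCTG. The APOBEC2 stretch held 1 CANNTG site, which read CACCTG and began 175 bases before the start. It also held TATAAA 30 bases before the start, a match that 10.7% of the stretches had somewhere. Neither stretch held a MEF2 site or a CArG box, the binding motif of serum response factor, which were present in 2.80% and 1.16% of all stretches. These matches describe letters and not binding.

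The study also followed APOBEC2 by RT-qPCR, and its primers are shown because they mark the part of the transcript read by that assay.
forward: agaacctggacgaccctgagaa
reverse: caaccacatagcagaggaaggtc

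The forward primer matched exon 1 of APOBEC2 at chr6:41021151-41021172 of hg19, and the reverse primer matched exon 2 at chr6:41029136-41029158. Both lie in the coding sequence, and the product of 159 bases crosses the first intron. The FPKM of the table covers the whole transcript, including its 3′ untranslated region.

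LMOD3 had 1.15, 1.88 and 1.65 FPKM in GFP replicates 1, 2 and 3 and 0.673, 0.770 and 0.339 FPKM in PANX1 replicates 1, 2 and 3. All PANX1 values lay below all GFP values, with a gap between the lowest GFP value of 1.15 and the highest PANX1 value of 0.770. GFP cells averaged 1.56 ± 0.372 FPKM and PANX1 cells 0.594 ± 0.226 FPKM (SD, n = 3 each). This corresponds to a log2 ratio of -1.39, or a 2.63-fold lower mean, and to a 2.16-fold lower mean without PANX1 replicate 3. In these bulk libraries, fewer cells that express a gene and less RNA per cell cannot be told apart.

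KLHL31 was the most abundant of the 3 genes, with 3.30, 3.35 and 3.95 FPKM in GFP replicates 1, 2 and 3. It had 1.68, 1.96 and 0.605 FPKM in PANX1 replicates 1, 2 and 3. The GFP values lay close together and the PANX1 values lay all below them. GFP cells averaged 3.53 ± 0.359 FPKM and PANX1 cells 1.41 ± 0.714 FPKM (SD, n = 3 each). The log2 ratio of -1.32 became -0.96 without PANX1 replicate 3. That replicate was 3.24-fold below the highest PANX1 replicate, while the GFP replicates differed by at most 1.19-fold.

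APOBEC2 was the least steady of the 3 genes. It had 0.345, 0.738 and 1.92 FPKM in GFP replicates 1, 2 and 3 and 0.265, 0.641 and 0.127 FPKM in PANX1 replicates 1, 2 and 3. The groups overlapped, since PANX1 replicate 2 exceeded GFP replicate 1. These libraries share neither a title number nor a description number. Between libraries that do share a number, the PANX1 value was the lower, but whether such libraries belong together is not known. GFP cells averaged 1.00 ± 0.82 FPKM and PANX1 cells 0.344 ± 0.266 FPKM (SD, n = 3 each), with coefficients of variation of 81.9% and 77.2%. The highest GFP replicate was 5.56-fold above the lowest, a larger factor than the 2.91-fold difference between the group means. The log2 ratio of -1.54 became -0.65 without GFP replicate 3, -1.14 without PANX1 replicate 3 and -2.35 without PANX1 replicate 2, so its size rested on single libraries. Of all entries of the table, 11.9% had PANX1 values that lay wholly below the GFP values and 82% had them wholly above. LMOD3 and KLHL31 belong to these entries, and APOBEC2 does not. A log2 ratio below -1 was found for 3.22% of all entries, these 3 genes included. Both the overlap and the ratios come from the contrast by which the genes were chosen, and nothing is read from their share.

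**Figure D1:**
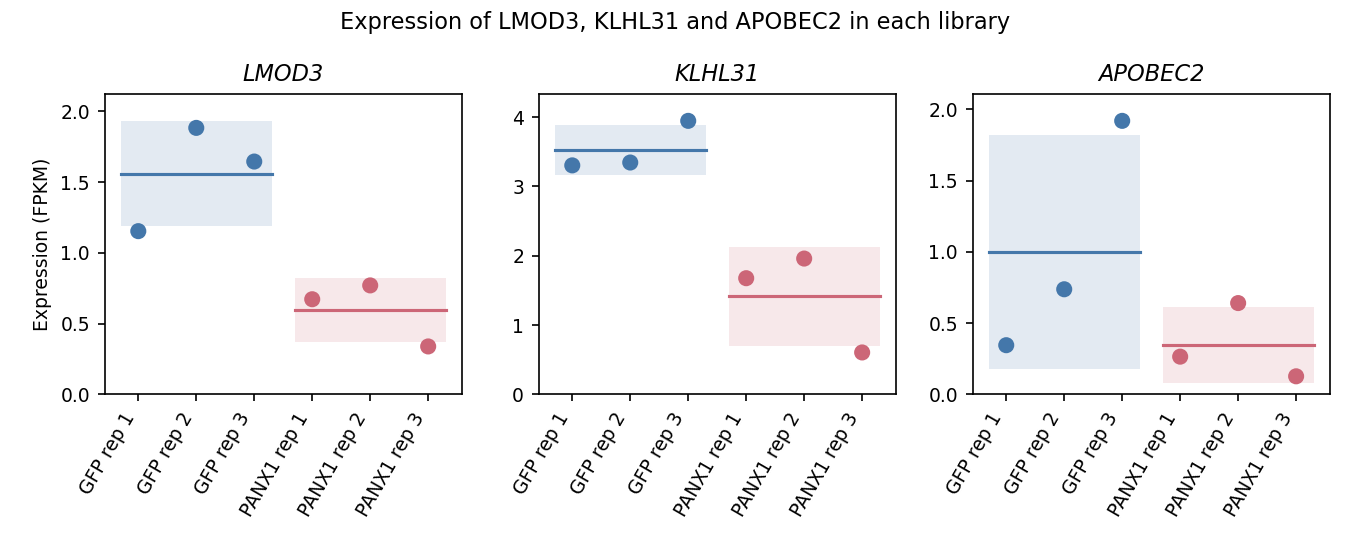
Expression in FPKM (vertical axis, from 0, a separate scale for each gene) of LMOD3, KLHL31 and APOBEC2 in each of the 6 libraries (horizontal axis). Points are single libraries, lines are group means and bands are ± 1 SD of 3 libraries in blue for GFP and red for PANX1. The groups are separate for LMOD3 and KLHL31 and overlap for APOBEC2, and PANX1 replicate 3 is the lowest point in each panel.

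The order of the PANX1 libraries was the same in all 3 genes, with replicate 2 the highest and replicate 3 the lowest. Against the mean of GFP, the log2 ratio of LMOD3 was -1.21, -1.02 and -2.20 in PANX1 replicates 1, 2 and 3. That of KLHL31 was -1.07, -0.85 and -2.54, and that of APOBEC2 was -1.92, -0.64 and -2.98. All 9 values lay below 0. Among all 165 entries with a lower mean in PANX1 cells, replicate 3 was the lowest PANX1 library in 95.8% and replicate 2 was the highest in 47.9%. The library with the most PANX1 transcript, PANX1 replicate 2, was the one with the highest level of each of the 3 genes within its group, but replicates 1 and 3, which had nearly the same PANX1 level, differed in all of them.

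Within a library, FPKM allows the levels of the genes to be compared per length. KLHL31 exceeded both other genes in each of the 6 libraries. LMOD3 exceeded APOBEC2 in 5 of 6, with GFP replicate 3 as the exception. The ratio of LMOD3 to KLHL31 was 0.349, 0.563 and 0.417 in GFP replicates 1, 2 and 3 and 0.401, 0.393 and 0.56 in PANX1 replicates 1, 2 and 3. It averaged 0.443 ± 0.109 in GFP libraries and 0.451 ± 0.0941 in PANX1 libraries (SD, n = 3 each), so the means were closer than either SD. The ratio of APOBEC2 to KLHL31 ran from 0.105 to 0.487 in GFP and from 0.158 to 0.327 in PANX1 cells, and the range of the PANX1 group lay inside that of the GFP group. The lower means of LMOD3 and KLHL31 were thus of similar proportion, while the level of APOBEC2 relative to KLHL31 was more widely spread in the GFP libraries than in the PANX1 libraries. On the scale of mean GFP FPKM, APOBEC2 ranked 206th, LMOD3 290th and KLHL31 488th from the lowest of the 1273 entries, so all 3 were below the middle of the table.

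**Figure D2:**
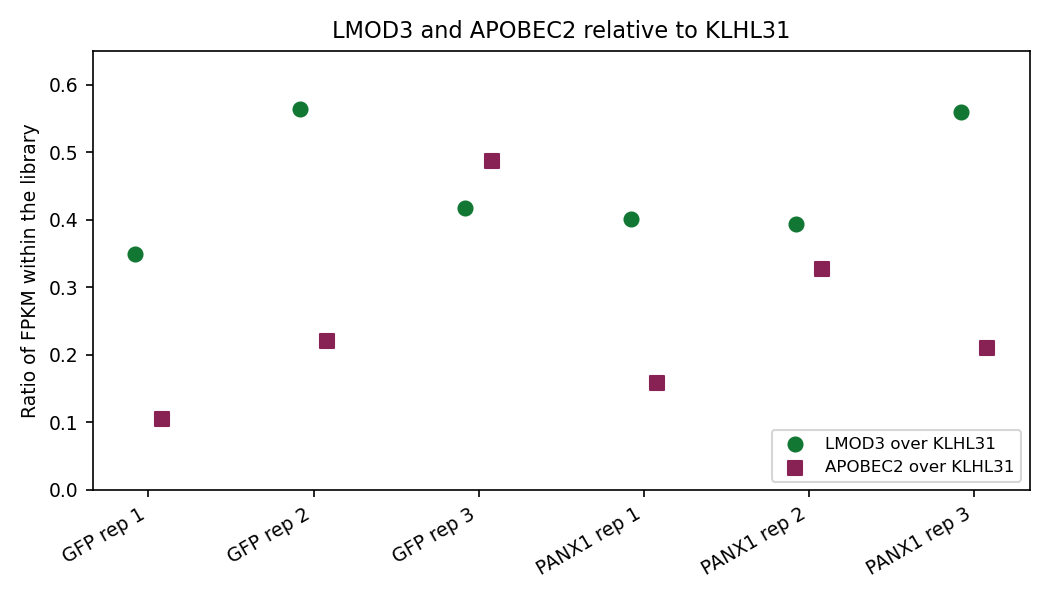
Ratio of FPKM of LMOD3 (circles) and APOBEC2 (squares) to KLHL31 within each library (vertical axis from 0, no unit). The circles lie between 0.349 and 0.563 in both groups, and the squares are more widely spread in GFP than in PANX1 libraries.

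Rh30 cells carry a skeletal muscle program, and the table includes some of its defining genes. Of the 8 markers fixed for the muscle lineage, DES and CDH15 were in the table, and the other 6 were not analysed here. DES, which encodes the muscle intermediate filament desmin, had 214, 277 and 354 FPKM in the GFP replicates and 384, 427 and 571 FPKM in the PANX1 replicates. CDH15 encodes M-cadherin, an adhesion protein of myoblasts, and had 20.1, 24.2 and 27.6 FPKM in the GFP replicates and 39.5, 38.9 and 120 FPKM in the PANX1 replicates. Both markers were therefore present in every library, and on the deposited FPKM scale all PANX1 values of both exceeded all GFP values. The direction of DES depended on the scale, since its fold change in the limma fit described next, 0.72, turned to -0.35 with median-of-ratios scaling, which centres the table, and to -0.12 with the GC correction. That of CDH15 went from 1.23 to 0.18 and 0.21.

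Of 197 symbols in 4 lists of muscle genes, 20 were in the table, LMOD3 among them. With limma on log2(FPKM + 1) and Benjamini-Hochberg adjustment over the whole table, 33.5% of all entries were called higher and 0.707% were called lower at an adjusted p under 0.05. This fit used a trend in eBayes, by which the variance of a gene came almost wholly from genes of like mean level. Its standard errors and p-values therefore do not measure a gene's own spread between replicates. Of the 19 muscle entries other than LMOD3, 7 were called higher, 2 were called lower and 10 were not called. Their median log2 ratio was 1.12, beside 1.23 for the whole table. As the authors had selected the table on these libraries, these calls are not independent evidence of direction. Without PANX1 replicate 3, limma called 16 of the 19 higher and 3 lower, and without a GFP replicate it called at most 1 higher and 0 lower, with 0 to 3 lower at an unadjusted p under 0.05. With median-of-ratios scaling and with the GC correction, 0 of the 19 were called higher, with 2 at an unadjusted p under 0.05 in each, and 0 were called lower, with 3 and 2 at that p. Median-of-ratios scaling assumes that most genes do not change, which a table of called genes does not meet. It lowers every gene of the PANX1 libraries alike and by construction brings the median of the table to near 0, here from 1.23 to 0.043. Values on that scale therefore give a gene's position relative to the rest of the table, and genes already lower could not change sign. On it, 8 of the 19 entries lay above the GFP level and 11 below, and LMOD3, KLHL31 and APOBEC2 had log2 ratios of -2.21, -2.10 and -2.22.

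The called muscle genes that went the same way as LMOD3 belong to the list of thick filament, Z-disc and M-band genes. SMYD1, a muscle methyltransferase needed for myofibril assembly, had 3.71, 5.11 and 8.41 FPKM in the GFP replicates and 1.66, 3.80 and 0.472 FPKM in the PANX1 replicates. Its groups overlapped at the lowest GFP and the highest PANX1 value. The limma fold change on the log2(FPKM + 1) scale was -1.28 with a standard error of 0.462 and an adjusted p of 0.0306. That standard error reflects genes of like level more than the replicates of SMYD1. MYH8, the perinatal myosin heavy chain, had 0.388, 0.606 and 0.883 FPKM in the GFP replicates and 0.115, 0.26 and 0.0301 FPKM in the PANX1 replicates, without overlap. Its limma fold change was -0.51 with a standard error of 0.193 and an adjusted p of 0.0354. MYH8 belongs to a cluster of related myosin heavy chain genes, and how reads shared between them were assigned was not tested. Over all alternatives, the adjusted p of limma ran from 0.00286 to 0.189 for SMYD1 and from 0.00296 to 0.185 for MYH8. It was above 0.05 for both without any 1 of the GFP replicates, without PANX1 replicate 1, with eBayes without a trend and with median-of-ratios scaling. By its construction that scaling gave larger fold changes, -1.90 for SMYD1 and -0.75 for MYH8, and leaving out the trend does not alter them. With each of the 6 libraries left out in turn, the fold change stayed between -1.71 and -0.86 for SMYD1 and between -0.62 and -0.40 for MYH8.

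XIRP2, an actin-binding protein of muscle attachment sites, also had a lower mean, but was not called. GFP cells averaged 0.586 ± 0.186 FPKM and PANX1 cells 0.219 ± 0.0521 FPKM (SD, n = 3 each), with a limma adjusted p of 0.0877. Limma did call XIRP2 lower without PANX1 replicate 3 and with a block by description numbers, with adjusted p-values of 0.0161 and 0.00502. With a block by title numbers it was not called, with an adjusted p of 0.0951. In SMYD1, MYH8 and XIRP2, as in LMOD3, KLHL31 and APOBEC2, PANX1 replicate 2 was the highest and replicate 3 the lowest PANX1 library. Without replicate 3 the log2 ratio of mean FPKM was -1.07 for SMYD1, -1.74 for MYH8 and -1.25 for XIRP2.

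The muscle genes that rose in the limma fit included several of higher abundance. In the thin filament list, TNNT1, the slow skeletal troponin T, rose from 140 ± 12.9 FPKM (SD, n = 3) to 283 ± 141 FPKM (SD, n = 3), with an adjusted p of 0.0464. Its limma fold change of 0.91 turned to -0.16 under median-of-ratios scaling. With the GC correction that fold change was 0.39, with an adjusted p of 0.185. With a minimum mean FPKM of 1 the fold change was as before and the adjusted p was 0.0563. Without PANX1 replicate 3 its log2 ratio of mean FPKM went from 1.02 to 0.53. TNNI1, the slow troponin I, averaged 30.6 ± 3.59 FPKM in GFP and 48.5 ± 14.6 FPKM in PANX1 cells (SD, n = 3 each) and was not called. LMOD3 was the only 1 of the 3 entries of this list with a lower mean on the deposited scale, but under median-of-ratios scaling the fold change of TNNI1 also turned, from 0.61 to -0.44, so that all 3 were lower. Among the Z-disc genes, PDLIM7, which encodes a LIM protein, rose from 9.80 ± 1.5 to 36.2 ± 32.7 FPKM (SD, n = 3), with an adjusted p of 0.0157. Without PANX1 replicate 3 its log2 ratio of mean FPKM went from 1.89 to 0.83, and its limma fold change of 1.44 went to 0.43 with median-of-ratios scaling and 0.51 with the GC correction. FLNC, the actin crosslinker filamin C, rose from 20.3 ± 1.28 to 47.9 ± 28.5 FPKM (SD, n = 3), with an adjusted p of 0.039. In PANX1 replicates 1, 2 and 3, FLNC had 32.9, 30.0 and 80.7 FPKM. All 3 lay above the highest GFP value of 21.7 FPKM, and without replicate 3 the log2 ratio of mean FPKM went from 1.24 to 0.63. The limma fold change of FLNC went from 1.05 to 0.0093 with median-of-ratios scaling and to 0.25 with the GC correction. Its rise was thus close to the median of the table.

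Of the regulators of the myogenic program in the table, CDH15 and ID3, an inhibitor of basic helix-loop-helix factors, rose in the limma fit with adjusted p-values of 0.0198 and 0.0363. Without PANX1 replicate 3 their log2 ratios of mean FPKM went from 1.46 to 0.71 and from 1.32 to 0.57. The fold change of ID3 went from 1.07 to 0.026 with median-of-ratios scaling and to 0.61 with the GC correction. HDAC5, a class IIa histone deacetylase, averaged 8.52 ± 1.75 FPKM in GFP and 17.5 ± 4.34 FPKM in PANX1 cells (SD, n = 3 each) and was not called. In the list of membrane, calcium and metabolic genes, RAPSN and JSRP1 rose. RAPSN, which gathers acetylcholine receptors at the neuromuscular junction, had 12.9, 14.6 and 18.7 FPKM in the GFP replicates and 39.5, 36.1 and 141 FPKM in the PANX1 replicates. Its limma fold change was 1.88 with a standard error of 0.409 and an adjusted p of 0.000367. JSRP1, a protein of the junctional sarcoplasmic reticulum, had a fold change of 1.55 and an adjusted p of 0.0202. Both calls ended with median-of-ratios scaling, where the fold changes were 0.85 and 0.69, and with the GC correction, where they were 1.07 and 0.22. When a block by title numbers was added to the GC correction, limma gave RAPSN an adjusted p of 0.025 and JSRP1 0.371, with the same fold changes. Both calls also ended with eBayes without a trend, with an adjusted p of 0.0664 each and the fold changes of the main fit. Over all alternatives the adjusted p ran from 5.06e-05 to 0.12 for RAPSN and from 0.005 to 0.385 for JSRP1. Without PANX1 replicate 3 the log2 ratios of mean FPKM went from 2.23 to 1.30 for RAPSN and from 2.24 to 1.17 for JSRP1. The means of ENO3 and AGRN, which encode the muscle enolase and the synapse organizer agrin, were 1.78-fold and 2.27-fold higher in PANX1 cells. Neither was called in the limma fit without a block. With libraries of the same title number as a block, limma called ENO3 higher with an adjusted p of 0.0251, and AGRN was not called. A block by the description numbers called both, with adjusted p-values of 0.00459 and 0.0128. Under median-of-ratios scaling the limma fold change of ENO3 turned from 0.83 to -0.24 and that of AGRN from 0.93 to -0.00041, and AGRN turned to -0.21 with the GC correction.

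**Figure D3:**
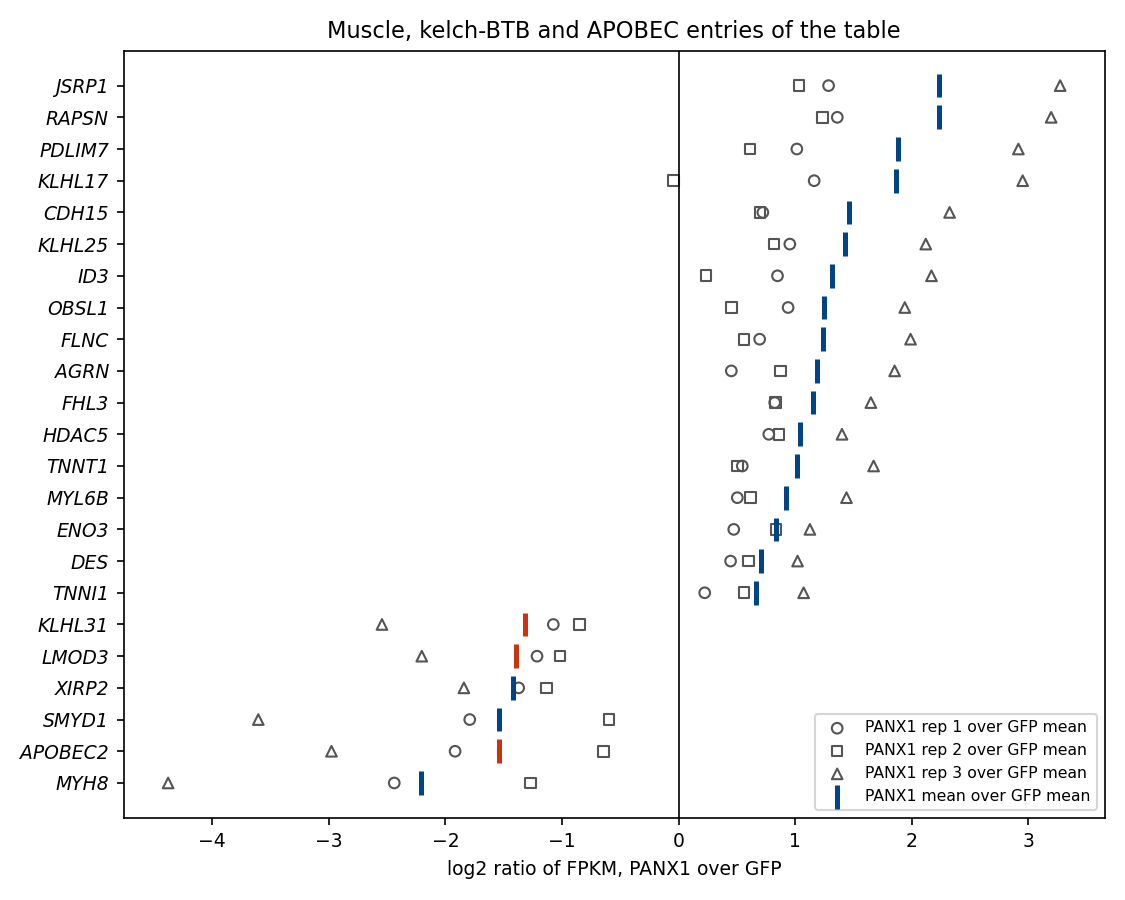
Log2 ratio of FPKM, PANX1 over the GFP mean (horizontal axis), for the entries of the muscle, kelch-BTB and AID/APOBEC lists that the table holds, 1 of them not shown (vertical axis, ordered by ratio). Open symbols are PANX1 replicates 1, 2 and 3, and bars are the ratio of group means, red for LMOD3, KLHL31 and APOBEC2 and blue for the others. Triangles, PANX1 replicate 3, are the farthest from 0 in every row, and the bars of 6 entries lie below 0.

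Within their own families, KLHL31 and APOBEC2 had few relatives to compare with. Of 60 kelch-BTB symbols, 3 were in the table. KLHL17, which encodes a kelch protein that binds actin filaments, averaged 0.592 ± 0.314 FPKM in GFP and 2.16 ± 2.13 FPKM in PANX1 cells (SD, n = 3 each). It was called higher in limma with an adjusted p of 0.0302, but its groups overlapped, and the fold change of 0.80 turned to -0.16 with the GC correction. Without PANX1 replicate 3 it was 0.28 and no longer called, and the log2 ratio of mean FPKM went from 1.87 to 0.68. KLHL25, a cullin 3 adaptor, averaged 1.63 ± 0.215 FPKM in GFP and 4.36 ± 2.35 FPKM in PANX1 cells (SD, n = 3 each) and was not called. KLHL31 was the only 1 of the 3 with a lower mean on the deposited scale. Of the 11 AID/APOBEC genes, APOBEC2 alone was in the table, and the other 10 were not analysed here.

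The level of LMOD3 across the 6 libraries was most like that of KCNJ2, XIRP2, ZNF385B, CYCS and JUND, with Pearson's r from 0.96 to 0.977 on log2(FPKM + 1). For KLHL31 the 5 entries most like it were GPM6B, PHLDA1, ZDHHC21, SLC30A1 and TMX3, with r from 0.99 to 0.997. For APOBEC2 they were IGLL1, DNAJA4, EDN3, SMPX and ATF3, with r from 0.946 to 0.992. All 15 had a lower mean in PANX1 cells. These are descriptions over 6 libraries that share the group difference, in a table selected for that difference. With 1 library left out, 0 to 4 of the 5 remained among the 5 for LMOD3, 2 to 3 for KLHL31 and 4 for APOBEC2. When only the deviations from the group means were used, r for the same 15 pairs lay between 0.811 and 0.996. Those deviations are part of the r by which the pairs were picked, so nothing is concluded from these values. Picked afresh on the deviations, 1, 2 and 3 of the 5 remained for LMOD3, KLHL31 and APOBEC2. SMPX, which encodes a small protein of striated muscle and was in none of the lists, had 1.75 FPKM on average in GFP and 0.427 FPKM in PANX1 cells and was called lower in limma. Among the 3 genes themselves, r was 0.936 between LMOD3 and KLHL31, 0.737 between LMOD3 and APOBEC2 and 0.726 between KLHL31 and APOBEC2. With deviations from the group means these were 0.73, 0.604 and 0.554.

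Of the 6 nearest entries of the table on the same chromosomes, 5 had a higher mean in PANX1 cells, beside 87% of all entries. The closest was FOXP4, 0.482 Mb after APOBEC2, which averaged 3.08 ± 0.101 FPKM in GFP and 6.97 ± 4.21 FPKM in PANX1 cells (SD, n = 3 each). ZNF76, 5.76 Mb before APOBEC2, and TKT, 15.9 Mb before LMOD3, had log2 ratios of 1.03 and 1.22. MRPS18A, 9.86 Mb before KLHL31, and MICAL1, 56.2 Mb after it, had log2 ratios of 0.98 and 1.31. DCBLD2, 29.3 Mb after LMOD3, had a log2 ratio of -0.73.

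LMOD3 and KLHL31 shared a low GC content, close to the median of the entries with a lower mean in PANX1 cells, among which they were chosen. The GC content of the transcript was 40.5% for LMOD3, 40.1% for KLHL31 and 49.8% for APOBEC2, beside a median of 49.1% for annotated protein-coding genes. Among the entries with a GC value, the median was 39.2% for those with a lower mean in PANX1 cells and 61.6% for those with a higher one. SMYD1 and MYH8 had 47.8% each and XIRP2 had 39.3%, while the 16 muscle entries with a higher mean ranged from 54.5% to 71.1%. The excess of PANX1 replicate 3 over replicates 1 and 2 also followed GC content, with a Spearman's rho of 0.588 across 1154 genes, which are not independent replicates.

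After each library's slope on GC content was removed, the difference in mean log2(FPKM + 1) of LMOD3 went from -0.68 to -0.17 and that of KLHL31 from -0.95 to -0.41. That of APOBEC2 went from -0.51 to -0.56. The correction also removes any true difference that follows GC content. The limma fold change of SMYD1 became -1.20 and that of MYH8 -0.44, with adjusted p-values of 0.107 each, and that of XIRP2 turned from -0.37 to 0.22. The difference thus stayed below 0 in all 3 genes and was smaller for LMOD3 and KLHL31 with the correction. Each slope was removed around 49.1% GC, the median of annotated protein-coding genes, so a gene near that value could hardly move. APOBEC2, at 49.8%, was such a gene, and nothing is concluded from its nearly unchanged difference. SMYD1 and MYH8, at 47.8%, were also close to that value. Before the correction, the SD of log2(FPKM + 1) within groups was 0.215 for LMOD3, 0.344 for KLHL31 and 0.448 for APOBEC2. The corrected difference of LMOD3 was smaller than that SD.

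**Figure D4:**
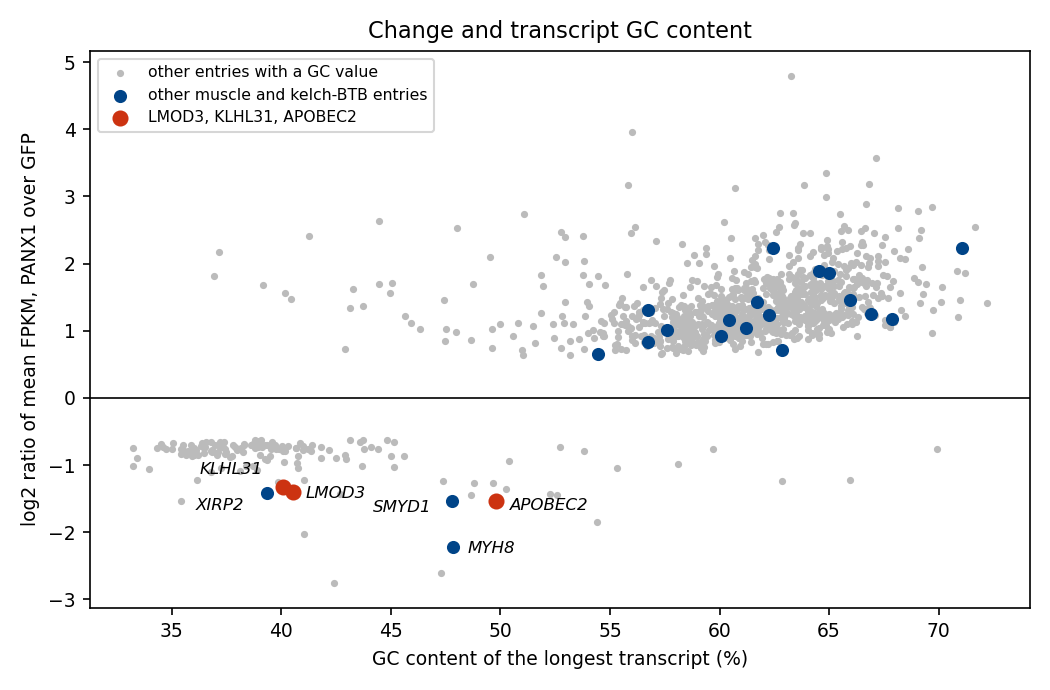
Log2 ratio of mean FPKM, PANX1 over GFP (vertical axis), against the GC content of the longest transcript in percent (horizontal axis) for the entries with a GC value. LMOD3 and KLHL31 lie among the entries of low GC content, near 40%, and APOBEC2, SMYD1 and MYH8 lie between 47% and 50%.

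Markers of cell types other than muscle were examined in the same way. Of 30 such markers, THY1, CD68 and TUBB3 were in the table and none was at 0 in any library. TUBB3 was the most abundant on average in both groups. Their summed level was 42.6, 46.5 and 51.2 FPKM in GFP replicates 1, 2 and 3 and 74.8, 70.3 and 154 FPKM in PANX1 replicates 1, 2 and 3. In limma, 2 of the 3 were called higher, TUBB3 and CD68, and THY1 was not called, beside 33.5% of all entries called higher. With median-of-ratios scaling the summed level was 69.1, 65.8 and 68.2 in the GFP replicates and 64.2, 67.8 and 61.1 in the PANX1 replicates, so the groups overlapped on a scale that sets the median of the table to near 0. Their part in the lower levels of LMOD3, KLHL31 and APOBEC2 was not tested.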

How the data were processed

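RNA from 3 GFP and 3 PANX1 libraries of Rh30 cells was sequenced on an Illumina HiSeq instrument after poly-A selection, with a kit not stated to keep strand. Alignment to hg19 by the authors used TopHat2 (2.0.13) on Bowtie2 (2.2.3), with SAMtools (1.0) and cutadapt (1.7.1) as accessory programs. Cufflinks (2.2.1) gave the expression values, and the deposited values are FPKM for 1273 genes, 1 column per library. The library normalization within Cufflinks is not given in the sources used here. The table gives no fragment counts per gene, so no counting interval was computed, although the methods state read totals per library. Columns were matched to samples by the sample titles. Start positions were converted from counting at 0 to counting at 1.

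Group means, SDs and log2 ratios of mean FPKM were computed without a pseudocount. The fit over the whole table used limma 3.58.1 in R 4.3.3 on log2(FPKM + 1). It had a trend in eBayes, no block and Benjamini-Hochberg adjustment at 0.05. With the trend, variances came almost wholly from genes of like mean level and not from a gene's own replicates. The code was checked on simulated data with even, independent noise and as many changes up as down. These data do not have that form, so the check does not bear on the calls made here. A fold change on the log2(FPKM + 1) scale understates the change of low genes. GC content came from the longest protein-coding transcript in GENCODE v44lift37, with a match for 1154 genes (90.7%). LMOD3, KLHL31, APOBEC2, the gene lists and the alternatives were chosen with earlier results of these data known. Genes named are these 3, PANX1, the 5 entries most correlated with each, the nearest entries on the chromosome, the lineage markers, and the entries of each list. In lists with over 8 entries the rule takes only called entries, and of these the ones with the 3 largest and 3 smallest ratios. MYL6B and OBSL1 were not called and so fall outside this rule. They were named after their values were seen, since they changed sign under an alternative. For 1 muscle entry, included in the counts, no values are reported here. Summaries and figures were made in Python (3.11.15). Alternatives were other pseudocounts, a minimum mean FPKM of 1, eBayes without a trend, median-of-ratios scaling, GC correction, replicate blocks and leaving out each library.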

Additional observations from a re-analysis of the deposited data

How the results depend on the processing

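The log2 ratios of LMOD3, KLHL31 and APOBEC2 stayed below 0 with each library left out, with median-of-ratios scaling, which could not have turned them, and as ratios of medians, of geometric means and of mean FPKM + 1. They ran from -1.63 to -1.11, from -1.63 to -0.96 and from -2.35 to -0.65 with 1 library left out. Median-of-ratios scaling gave -2.21 for LMOD3 and -2.10 for KLHL31, and a ratio of mean FPKM + 1 gave -0.68 for LMOD3, -0.91 for KLHL31 and -0.57 for APOBEC2. The GC correction was run on the difference in mean log2(FPKM + 1), where LMOD3 had -0.17 after and -0.68 before it, KLHL31 -0.41 and -0.95, and APOBEC2 -0.56 and -0.51. APOBEC2 lies close to the GC content around which the slopes were removed, so its difference could hardly move. The methods state read totals per library, but the table gives no fragment counts per gene, which limits what can be said of such low levels.

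Over the table, limma called 426 genes higher and 9 lower. It called 22 and 20 lower with pseudocounts of 0.1 and 0.01, and 4 with a minimum mean FPKM of 1. Without a trend both counts were 0 (770 and 54 at an unadjusted p under 0.05), as with median-of-ratios scaling (145 and 171). With the GC correction they were 9 and 0 (66 lower unadjusted). With 1 library left out they ran from 8 to 994 and from 0 to 146. The cause was not tested. Of the 19 other muscle entries, 7 were higher and 2 lower. The minimum mean FPKM left 1 lower. Without a trend, with the scaling and with the GC correction 0 were higher (14, 2 and 2 unadjusted) and 0 lower (1, 3 and 2 unadjusted). With 1 library left out they ran from 0 to 16 and from 0 to 3.

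Libraries with the same title number deviated together with r of 0.416, -0.362 and 0.143. With 3 libraries per group, these values cannot decide whether the libraries were paired, and the description numbers were not checked in this way. The main fit used no pairing, and the blocks below give the alternatives. The methods call the PANX1 replicates matching without saying what they share, and titles and descriptions number them differently. The replicate block by title numbers gave 581 higher and 33 lower genes, with 10 muscle entries higher and 2 lower, and with the GC correction 66 and 6, with 1 muscle entry higher, RAPSN, and 0 lower (2 unadjusted). The block by description numbers, over 4 libraries, gave 1003 and 145 genes, with 16 muscle entries higher and 3 lower.

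Some limma fold changes changed sign. Under median-of-ratios scaling, which centres the table, they were -0.44 for TNNI1, -0.16 for TNNT1, -0.20 for MYL6B, -0.35 for DES, -0.035 for HDAC5, -0.00041 for AGRN and -0.24 for ENO3. With the GC correction, with or without the block, they were 0.22 for XIRP2, -0.12 for DES, -0.059 for OBSL1, -0.21 for AGRN and -0.16 for KLHL17. Of the 5 entries most like LMOD3, KLHL31 and APOBEC2, 2, 3 and 4 remained with a pseudocount of 0.1, 2, 2 and 3 with the GC correction, and 1, 2 and 3 with deviations from the group means. With 1 library left out, 0 to 4, 2 to 3 and 4 to 4 remained.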
